A study of Mus musculus with 3 samples.

Results

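The BH3-only genes studied here are 10 named members, Bcl2l11, Bbc3, Pmaip1, Bid, Bad, Bik, Bmf, Hrk, Bnip3 and Bnip3l, all 10 of which were found by symbol among the 24467 genes of each count table. Polyadenylated RNA was sequenced from 5TGM1.BRE cells, a mouse multiple myeloma line that resists the proteasome inhibitor bortezomib and engrafts in C57BL/KaLwRij mice, from whose marrow it was recovered. There was 1 group of 3 libraries, replicates 1 to 3, and per the growth and treatment protocols given for all 3 the cells were kept in 10 nM bortezomib and then held without drug for at least 72 h. The cell type label of replicate 1 does not mention selection in the drug, as those of replicates 2 and 3 do. No sensitive or drug-treated cells were analysed here, so every value is a level within resistant cells off the drug and none is a response to it. The labels do not say whether the 3 samples were separate cultures or whether the line is a single clone. SDs and the p-values of the test between libraries therefore measure how these samples differ, and that difference may be technical. The p-values of ratios ask only whether genes differ in level within these same samples.

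BH3-only proteins start the mitochondrial pathway of apoptosis. Each carries a short helix, the BH3 domain, that fits into a groove on the survival proteins of the BCL2 family, and some also engage the effectors BAX and BAK, which open the outer mitochondrial membrane. Cells hold different BH3-only proteins in check by different routes: transcription for PUMA and NOXA, phosphorylation for BAD, cleavage by a caspase for BID, and tethering to dynein light chains for BIM and BMF. In myeloma, where survival leans on MCL1, NOXA (the product of Pmaip1) is known to accumulate when the proteasome is blocked and to occupy MCL1. Bnip3 and Bnip3l encode atypical members that sit in the outer mitochondrial membrane and serve mainly as receptors for mitophagy, the removal of mitochondria by autophagy.

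The libraries held 62303493, 45705994 and 59402218 gene counts. Replicate 3 stood apart with a trend on gene length, described with its values below. Of 9 plasma cell markers, 7 reached 1 CPM (count per 1000000 counts of the library) in every library, with Cd38 at 0 counts and Tnfrsf17 below the limit. Markers of other cells were scarce: none of 7 T and NK cell, 7 myeloid or 4 erythroid genes reached the limit, and their summed levels per library were 0.153 to 0.369, 0.263 to 0.556 and 0.337 to 0.372 CPM. Of 8 stromal and endothelial genes 1 did, Pecam1, with a summed list level of 6.13 to 6.70 CPM and Col1a2 at 0. The B cell genes Fcer2a and Ms4a1 were the 2 of 6 that passed, and that list summed to 9.60, 4.35 and 6.11 CPM, with Cr2 at 0 and Cd22 at 1 count in all libraries together. The part of these markers in the levels of the BH3-only genes was not tested.

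The core of the BH3 domain was looked for in the coding sequence of the members. GENCODE M21 (GRCm38, the assembly of mm10) was searched in frame, in the longest complete coding sequence of each gene, for a leucine codon, 3 codons of any kind, a glycine, alanine or serine codon, an aspartate codon and a glutamate, aspartate or glutamine codon. Of the 10 members, 7 held exactly 1 match each and are the ones listed here. At least 1 match was held by 7.4% of 21549 genes with a complete coding sequence. The pattern describes the BH3 core itself, so matches in genes known for that domain are no test of it. The capitals mark the 7 codons matched, and 6 codons on either side are in lower case, printed on the coding strand to show how closely the members resemble each other where they bind.
Bcl2l11, chr2:128147132-128147188, plus strand: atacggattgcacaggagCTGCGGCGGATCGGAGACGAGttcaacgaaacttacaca
Bbc3, chr7:16313755-16313811, plus strand: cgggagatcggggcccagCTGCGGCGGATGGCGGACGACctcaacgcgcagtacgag
Bid, chr6:120897277-120897333, minus strand: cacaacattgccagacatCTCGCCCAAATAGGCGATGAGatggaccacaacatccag
Bad, chr19:6950774-6950830, plus strand: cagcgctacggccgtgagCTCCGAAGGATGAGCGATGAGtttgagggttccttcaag
Bik, chr15:83543066-83543122, plus strand: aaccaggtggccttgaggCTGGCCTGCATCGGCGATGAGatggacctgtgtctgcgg
Bmf, chr2:118545088-118545144, minus strand: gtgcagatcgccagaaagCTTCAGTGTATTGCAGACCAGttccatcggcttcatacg
Hrk, chr5:118169873-118169929, plus strand: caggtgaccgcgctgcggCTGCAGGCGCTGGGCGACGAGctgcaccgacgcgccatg
No match to this pattern of codons was found in Bnip3, Bnip3l or Pmaip1, which says only that their coding sequences lack this pattern. Hrk and Bik thus hold the core like the other genes printed, although their transcripts were undetected or nearly so, as shown next.

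Transcripts of the family spanned a wide range, with Pmaip1 far above the rest and Hrk undetected. Of the 10 members, 8 were at 1 CPM or more in all 3 libraries, against 40.9% of all genes listed. Bik lay below that limit, and Hrk was among the 33.5% of genes with no count in any library. To compare genes, CPM was divided by the length of the gene's merged exons in kilobases, which gives CPM per kilobase. On that scale the order was Pmaip1, Bid, Bnip3l, Bnip3, Bad, Bbc3, Bmf, Bcl2l11 and Bik, and expressed genes (those at 1 CPM or more in all libraries) had a median of 9.13 CPM per kilobase.

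**Figure D1:**
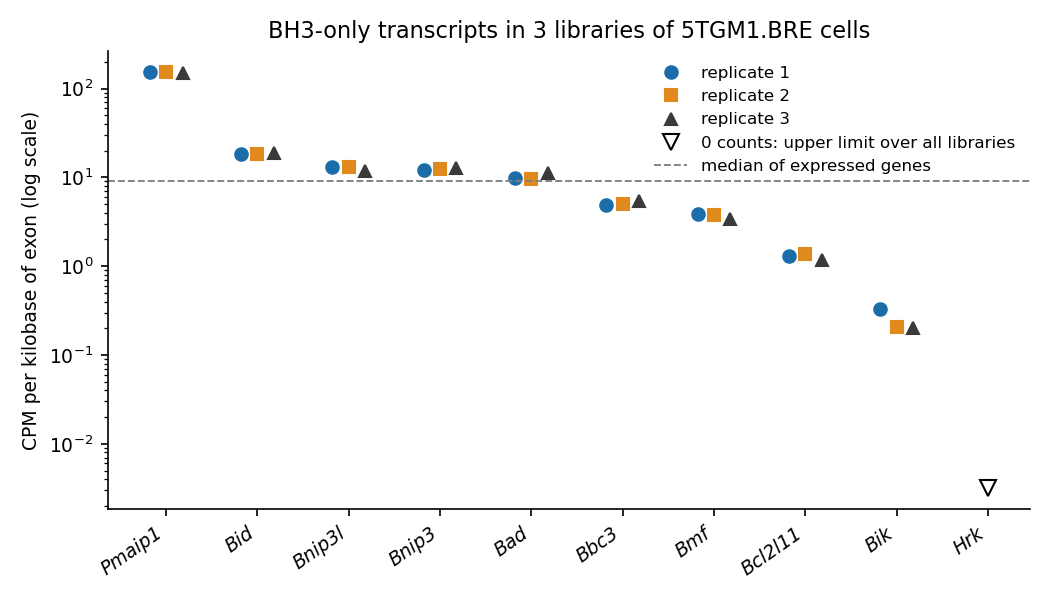
Level of each BH3-only gene in each of the 3 libraries, in CPM per kilobase of exon on a log axis; the dashed line is the median of expressed genes and the open triangle is the upper limit that 0 counts allow for Hrk. Pmaip1 sits near 153 CPM per kilobase in every library, Bid, Bnip3l, Bnip3 and Bad lie above the median, and Bbc3, Bmf, Bcl2l11 and Bik lie below it.

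Pmaip1, the NOXA gene, had 26501, 19228 and 24136 counts in replicates 1, 2 and 3, or 425, 421 and 406 CPM. All 3 libraries were thus close together, with the lowest in replicate 3. Per kilobase the level was 153 ± 3.63 CPM (SD, n = 3), which ranked 321 among the 9971 expressed genes with a length, above 96.8% of them. Its transcript accounted for 78.7 to 80.1% of the summed CPM per kilobase of the 8 canonical members, those other than Bnip3 and Bnip3l, and for 75.8% ± 0.637 (SD, n = 3) without lengths. The sum of the other canonical genes was 3.89-fold lower than Pmaip1 (log2 ratio 1.96 ± 0.07, SD, n = 3). That fold was 3.13 without lengths and 2.68 with each gene's longest transcript as the length. Closest to Pmaip1 in log2 CPM per kilobase over the 3 libraries were Odc1, Selt and Dnaja2, at 155, 152 and 156 CPM per kilobase, a likeness of level over 3 samples and nothing more. The gene lies on chromosome 18, and its 3 merged exons overlap no other annotated gene.

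The direct activators of BAX and BAK were each much less abundant than Pmaip1. Bid, whose product is cut by caspase 8 into its active form, had 65.9, 65.8 and 67.2 CPM, the tightest agreement between libraries among the members. At 18.7 ± 0.211 CPM per kilobase (SD, n = 3) it was second in the family and 8.18-fold below Pmaip1. The log2 ratio of Pmaip1 to Bid was 3.03, against 2.65 without lengths and 2.48 with each gene's longest transcript as the length. Bid maps to chromosome 6, minus strand, from 120891930 to 120916853, and 17.7% of its exon bases are also exon of Bcl2l13 on the opposite strand. Bcl2l13 was expressed at 75.2 ± 7.44 CPM (SD, n = 3). Without a stated strand setting, Bid could have gained counts from it or lost counts to it.

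Bcl2l11, which encodes BIM, the activator that binds every survival protein, was at 10.6, 11.0 and 9.55 CPM, lowest in replicate 3. The level of 1.29 ± 0.0921 CPM per kilobase (SD, n = 3) lay above only 11.2% of expressed genes, and was the lowest of the 8 members at 1 CPM or more. Its merged exons, at 8029 bp, are the longest in the family. The gene maps to chromosome 2, plus strand, from 128126038 to 128162547. Bbc3, which encodes PUMA, a p53 target, was at 10.4, 10.6 and 11.4 CPM, highest in replicate 3. It equalled 5.08 ± 0.251 CPM per kilobase (SD, n = 3), 3.94-fold above Bcl2l11 in all 3 libraries, but 1.04-fold above it without lengths and 2.90-fold by longest transcript. Bbc3 maps to chromosome 7, plus strand, from 16308393 to 16318205.

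Sensitizers act by occupying survival proteins, and those other than Pmaip1 were all below Bid, down to 0 counts for Hrk. Bad, whose product binds BCL2 and BCL-XL and is held back by phosphorylation and 14-3-3 proteins, had 1559, 1135 and 1714 counts. Scaled to depth, replicate 3 was the highest at 28.9 CPM, and replicate 2, at 24.8 CPM, was nearly equal to replicate 1. The mean was 10.3 ± 0.887 CPM per kilobase (SD, n = 3). Bad maps to chromosome 19, plus strand, from 6941861 to 6951899. Of its exon bases, 20.5% overlap Gpr137 on the opposite strand, a gene at 10.7 ± 0.548 CPM (SD, n = 3). The counts of Bad are uncertain for the same reason as those of Bid. Bmf, whose product is tethered to dynein light chain 2, was at 20.5, 19.6 and 17.9 CPM, lowest in replicate 3, or 3.68 ± 0.257 CPM per kilobase (SD, n = 3). Bmf maps to chromosome 2, minus strand, from 118528757 to 118549687.

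Bik and Hrk were at the bottom of the family. Bik, which encodes a BH3-only protein of the endoplasmic reticulum, had 33, 15 and 19 counts, or 0.530, 0.328 and 0.320 CPM. Replicate 1 was the highest, with few counts behind each value. The gene maps to chromosome 15, plus strand, from 83526862 to 83544634. Hrk, a BH3-only gene known mainly from neurons, was at 0 in all 3 libraries, and 0 of 167411705 counts allows up to 3 counts, or 0.0179 CPM. Such a limit covers counting error alone, because reads copied by PCR are counted as if independent. Measured against that limit over all libraries, Pmaip1 was at least 48392-fold higher per kilobase and Bcl2l11 at least 407-fold higher. Hrk maps to chromosome 5, plus strand, from 118164648 to 118189478.

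Levels per kilobase of the mitophagy receptors overlapped between libraries. Bnip3 was at 27.8, 27.9 and 29.1 CPM, slightly higher in replicate 3. Bnip3l, also called NIX, was at 51.1, 50.6 and 46.2 CPM, lower in replicate 3. They came to 12.5 ± 0.329 and 12.8 ± 0.703 CPM per kilobase (SD, n = 3 for each). The log2 ratio of Bnip3 to Bnip3l was -0.11, -0.09 and 0.10 in the 3 libraries, so its sign was not shared, and p was 0.75 in an exact sign-flip permutation test (two-sided, n = 3). Without lengths Bnip3l was 1.74-fold higher. Bnip3 maps to chromosome 7, minus strand, from 138890836 to 138909519, with 22.3% of its exon bases under the antisense gene Gm45507, which is not in the count table. Bnip3l maps to chromosome 14, minus strand, from 66985239 to 67008877.

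Along the order of the 9 members with counts, 7 of 8 neighbouring pairs had the same sign in all libraries and a mean log2 ratio above 2 SD. The exception was Bnip3l and Bnip3. The order was taken from these same libraries, so the direction of each mean ratio was fixed in advance. Neither this count nor the p-values below therefore test the order, and the SD leaves out error in the lengths. The steps ranged from 1.22-fold between Bnip3 and Bad to 8.18-fold between Pmaip1 and Bid, with 1.46-fold from Bid to Bnip3l, 2.01-fold from Bad to Bbc3, 1.38-fold from Bbc3 to Bmf, 2.85-fold from Bmf to Bcl2l11 and 5.37-fold from Bcl2l11 to Bik. On the log2 scale the last steps were 1.51 and 2.43, against 0.90 and 4.76 without lengths. The step from Pmaip1 to Bid was 3.03, against 2.65 without lengths. Each of the 7 gave p = 0.25 in the exact permutation test (0.286 after Benjamini-Hochberg adjustment over 8 pairs), the smallest p that n = 3 libraries allow. With the longest transcript as the length, Bad was above Bnip3 and Bnip3 above Bnip3l, and without lengths Bmf was above Bbc3.

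The levels of the BH3-only genes were then set against those of the survival genes they antagonise, within each library so that depth cancels. Per kilobase, transcripts of Pmaip1 and of NOXA's main partner gene, Mcl1, were at nearly the same level. Only RNA was sequenced, so these ratios do not give the ratios of the proteins. Mcl1 was at 475, 483 and 500 CPM, or 142 ± 3.74 CPM per kilobase (SD, n = 3). The log2 ratio of Pmaip1 to Mcl1 was 0.16, 0.12 and 0.02 in replicates 1, 2 and 3, with a mean of 0.10 ± 0.07 (SD, n = 3), or 1.07-fold. Without lengths Mcl1 was the higher, by 1.16-fold, so the direction rests on the lengths taken. The 8 canonical BH3-only genes summed and the 7 survival genes summed differed by 1.04-fold per kilobase, with a log2 ratio of -0.05 ± 0.06 (SD, n = 3), and Pmaip1 and Mcl1 make up most of either sum.

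Bcl2l11 was scarce beside the abundant survival genes and 1.21-fold below Bcl2. It was 110-fold below Mcl1 per kilobase (log2 -6.79 ± 0.14, SD, n = 3), 47.0-fold when lengths were ignored and 69.2-fold when each gene's longest transcript was used. Against Bcl2l1, which encodes BCL-XL and was at 43.9 ± 2.11 CPM per kilobase (SD, n = 3), it was 34.1-fold lower (log2 -5.09 ± 0.17, SD, n = 3) and 19.5-fold lower without lengths. Bcl2 was at 1.56 ± 0.0829 CPM per kilobase (SD, n = 3), and the log2 ratio of Bcl2l11 to Bcl2 was -0.27 ± 0.05 (SD, n = 3), with 0.05 for the longest transcript. Bcl2l2, which encodes BCL-W, was at 11.4 ± 0.325 CPM per kilobase (SD, n = 3). Bcl2a1a, Bcl2a1b and Bcl2a1d had 0 counts, and as near-identical copies they are uncertain.

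Bad was 4.29-fold below its partner Bcl2l1 (log2 -2.10 ± 0.07, SD, n = 3), or 7.69-fold without lengths. The activators Bcl2l11, Bid and Bbc3 together were below the effectors Bax, Bak1 and Bok together by a log2 ratio of -2.07 ± 0.07 (SD, n = 3), which was -1.20 without lengths. Of these effectors Bax was at 91.6, 93.4 and 117 CPM, Bak1 at 105, 100.1 and 94.4 CPM, and Bok had 1, 1 and 0 counts. Of the 10 ratios fixed for this comparison, 9 had the same sign in all 3 libraries and gave p = 0.25 by exact permutation (two-sided sign flips, n = 3) (0.278 after Benjamini-Hochberg adjustment), the smallest p possible, and that of Bnip3 to Bnip3l did not.

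**Figure D2:**
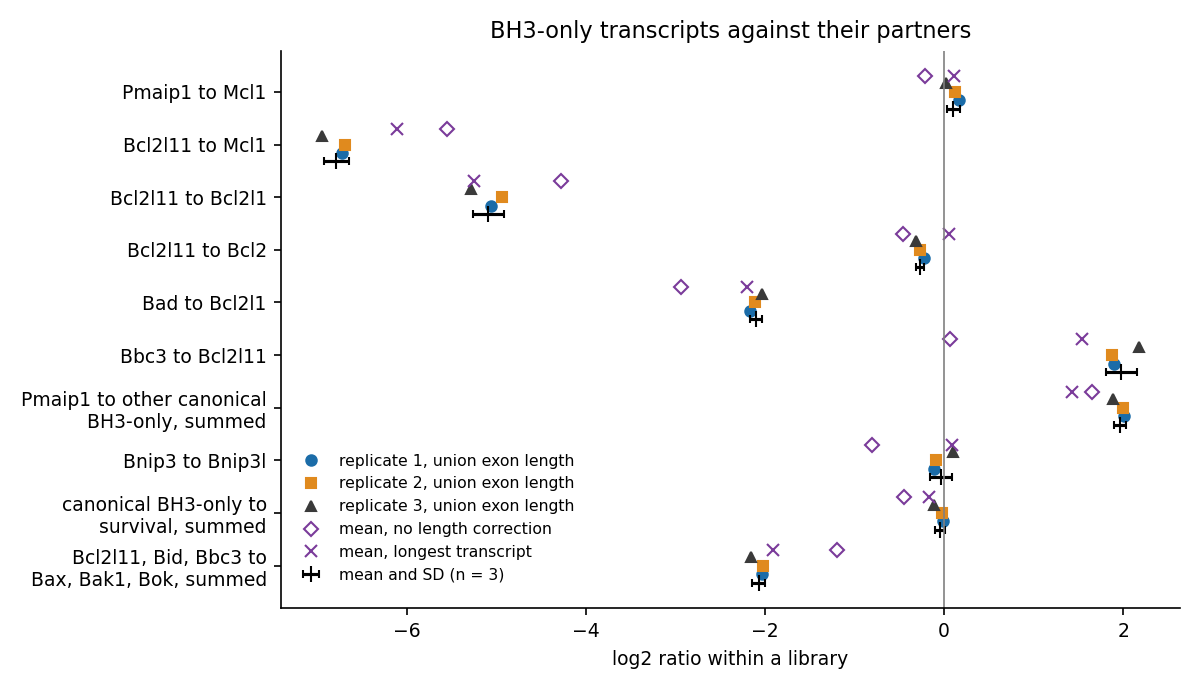
The 10 within-library log2 ratios: filled markers are the libraries with merged exon lengths, bars their mean and SD, and open diamonds and crosses the means without lengths and with the longest transcript. Pmaip1 to Mcl1 and the sums of BH3-only to survival genes lie near 0, whereas Bcl2l11 lies 110-fold below Mcl1 and 34.1-fold below Bcl2l1.

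Between the lowest and the highest library, the 8 members at 1 CPM or more differed by 1.02-fold (Bid) to 1.16-fold (Bad), and Bik, with few counts, by 1.66-fold. An edgeR likelihood ratio test of whether a gene's counts differ between the libraries by more than counting noise called 4 of the 9 members tested, against 62.9% of 11308 genes. The called genes were Bad (adjusted p = 1.48e-06 by edgeR), Bnip3l (0.00878), Bmf (0.0318) and Pmaip1 (0.0483). The call of Pmaip1, which differed by 1.05-fold, was lost with no filter on low counts. Bcl2l11, Bbc3, Bid, Bnip3 and Bik were not called, with adjusted p from 0.124 to 0.204 in the same edgeR test, which does not show that their levels were equal. Coefficients of variation were 1.13% for Bid, 2.38% for Pmaip1 and 2.64% for Bnip3, against a median of 7.23% over expressed genes, while Bad was at 8.65%. That median covers genes of all counts and lengths, so a value below it does not show that a gene was unusually steady. Without replicate 3 the edgeR test called 0 members, also at an unadjusted p under 0.05, and 8.57% of all genes, and with a dispersion of 0.0025 in place of 0 it called 0 members (1, Bad, at an unadjusted p under 0.05) and 15.6% of genes. Without replicate 1 it called 2, Bad and Bnip3l, and 55.9% of all genes.

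Part of this spread moved with gene length. In replicate 3, expressed genes in the shortest of 20 length bins had a median log2 CPM 0.28 above the mean of the other libraries, and those in the longest bin 0.30 below it (-0.30). Members were therefore set beside the 500 expressed genes nearest in length. Bcl2l11 differed in replicate 3 by -0.17 on the log2 scale and genes of its length by a median of -0.19, and Bid by 0.03 against 0.00394. For Bbc3 the values were 0.12 and 0.14, for Bnip3 0.07 and 0.12, and for Bmf -0.17 and -0.09. These 5 thus lay within the middle 50% of genes of like length. By construction 50% of such genes lie outside that range, so lying outside it does not set a member apart. Bad, at 0.21, lay above that range, which ended at 0.20. Pmaip1, at -0.06, lay below its range, which began at -0.01, and Bnip3l, at -0.14, lay just below its own, which began at -0.13. Without replicate 2, Bad was no longer outside. No test was made of these differences.

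**Figure D3:**
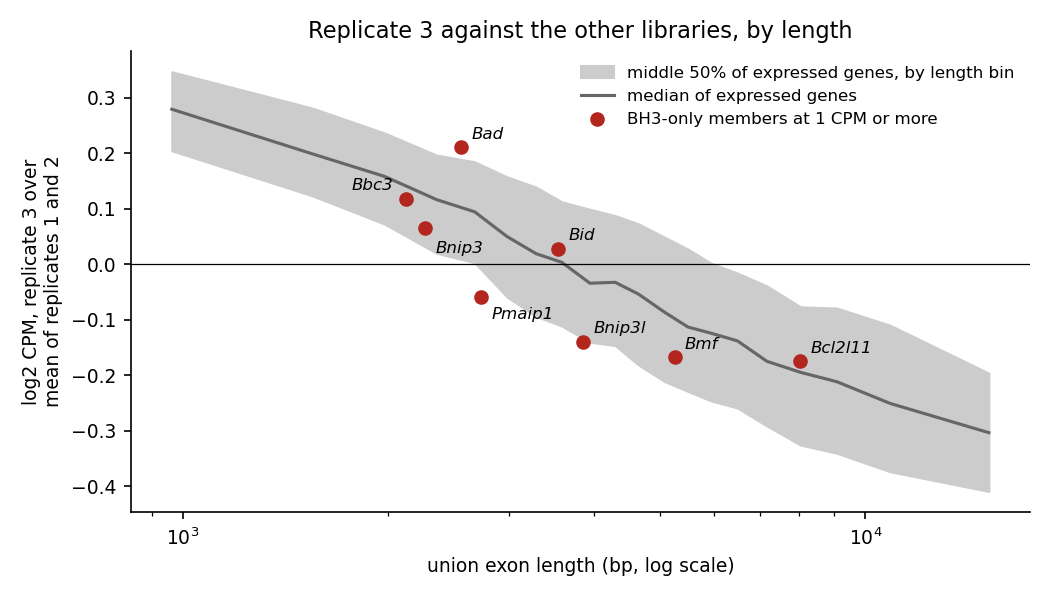
Log2 CPM in replicate 3 over the mean of replicates 1 and 2 against merged exon length, for the 8 members at 1 CPM or more (points) and for all expressed genes in 20 length bins (line, median; band, middle 50%). Bad lies above the band, Pmaip1 below it and Bnip3l at its lower edge, and by construction the band leaves out 50% of expressed genes.

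Regulators known to switch on BH3-only genes were mostly expressed. Of 10 transcription factors, 8 were at 1 CPM or more in all libraries. Atf4, the effector of the integrated stress response, was the highest at 291 ± 25.7 CPM per kilobase, followed by Myc at 171 ± 2.83 and Trp53, which encodes p53, at 36.3 ± 1.04 CPM per kilobase (SD, n = 3 for each). Ddit3, which encodes CHOP, was at 9.20 ± 1.19 CPM per kilobase (SD, n = 3). Foxo3, a known activator of Bcl2l11, had 1120, 841 and 639 counts, or 18.4 CPM in replicate 2 and 10.8 CPM in replicate 3, the lowest. Its merged exons span 7571 bp. Length bins with medians of 7171.5 and 8035.5 bp had median log2 differences of -0.17 and -0.19 in replicate 3. Whether the drop of Foxo3 goes beyond that was not tested. Atf3, a stress-induced factor that acts on Pmaip1, was nearly absent with 1, 2 and 3 counts, and the p53 relative Trp73 had 0, 1 and 0 counts. Whether any of these factors sets the level of Pmaip1 or another member was not tested.

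Of 14 p53 target genes, 10 passed the limit. Cdkn1a, the p21 cell cycle inhibitor, was at 74.9 ± 3.28, Trp53inp1 at 48.2 ± 5.15 and Mdm2, the ligase that degrades p53, at 31.6 ± 2.27 CPM per kilobase (SD, n = 3 for each). All were above Bbc3, but they were named as the 3 highest of the list. Some targets lay below Bbc3, among them Phlda3 and Perp, which had 0 counts. For the hypoxia response, which induces Bnip3 and Bnip3l, Hif1a was at 21.8 ± 2.05 CPM per kilobase (SD, n = 3), and 9 of 13 target genes passed. Ldha led with 405 ± 26.1, Pgk1 had 135 ± 2.74 and P4ha1 had 91.0 ± 4.06 CPM per kilobase (SD, n = 3 for each), whereas Adm and Egln3 had a summed 4 and 2 counts.

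All 9 genes of the list of mitophagy receptors and LC3 family proteins were expressed, at a median of 20.9 CPM per kilobase, which is above Bnip3 and Bnip3l. Gabarap was at 124 ± 10.3, Phb2, a mitophagy receptor of the inner membrane, at 78.3 ± 5.10 and Gabarapl1 at 66.4 ± 4.35 CPM per kilobase (SD, n = 3 for each). Protein-level regulators were also expressed throughout, with 21 of 21 at 1 CPM or more. Ywhae and Ywhaz, 14-3-3 proteins of the kind that bind phosphorylated BAD, were at 339 ± 2.46 and 122 ± 5.91 CPM per kilobase, and Akt1, a kinase for BAD, at 59.1 ± 2.48 (SD, n = 3 for each). Dynll1 and Dynll2, the dynein light chains that tether BIM and BMF, were at 49.5 ± 5.55 and 83.2 ± 0.892 CPM per kilobase, and Casp8, which cleaves BID, at 36.5 ± 2.60 (SD, n = 3 for each). March5, a ligase of the outer mitochondrial membrane linked to MCL1 and NOXA turnover, was at 108 ± 4.92 CPM per kilobase (SD, n = 3). Usp9x, a deubiquitinase that stabilises MCL1, was at 127, 120 and 57.6 CPM, well below the others in replicate 3. Its merged exons span 15051 bp. Genes in the longest length bin had a median log2 difference of -0.30 in that library, with the middle 50% from -0.41 to -0.20. Whether the drop of Usp9x goes beyond this trend was not tested.

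Downstream of the mitochondria, all 8 genes of the caspase machinery list passed the limit. Cycs, which encodes cytochrome c, was at 66.7 ± 5.42 and Htra2 at 18.4 ± 2.11 CPM per kilobase (SD, n = 3 for each). By list median, BH3-only genes were at 7.67 CPM per kilobase, survival genes at 1.56 with 3 of 7 at 0, and effectors at 41.5. The survival median is the level of Bcl2 and rests on the uncertain zeros of the Bcl2a1 copies. Mcl1, Bcl2l1 and Bcl2l2, at 142, 43.9 and 11.4, were above the BH3-only median. Medians were 11.6 for transcription factors, 13.4 for p53 targets, 15.1 for hypoxia targets, 33.4 for protein-level regulators and 9.59 CPM per kilobase for the caspase machinery.

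**Figure D4:**
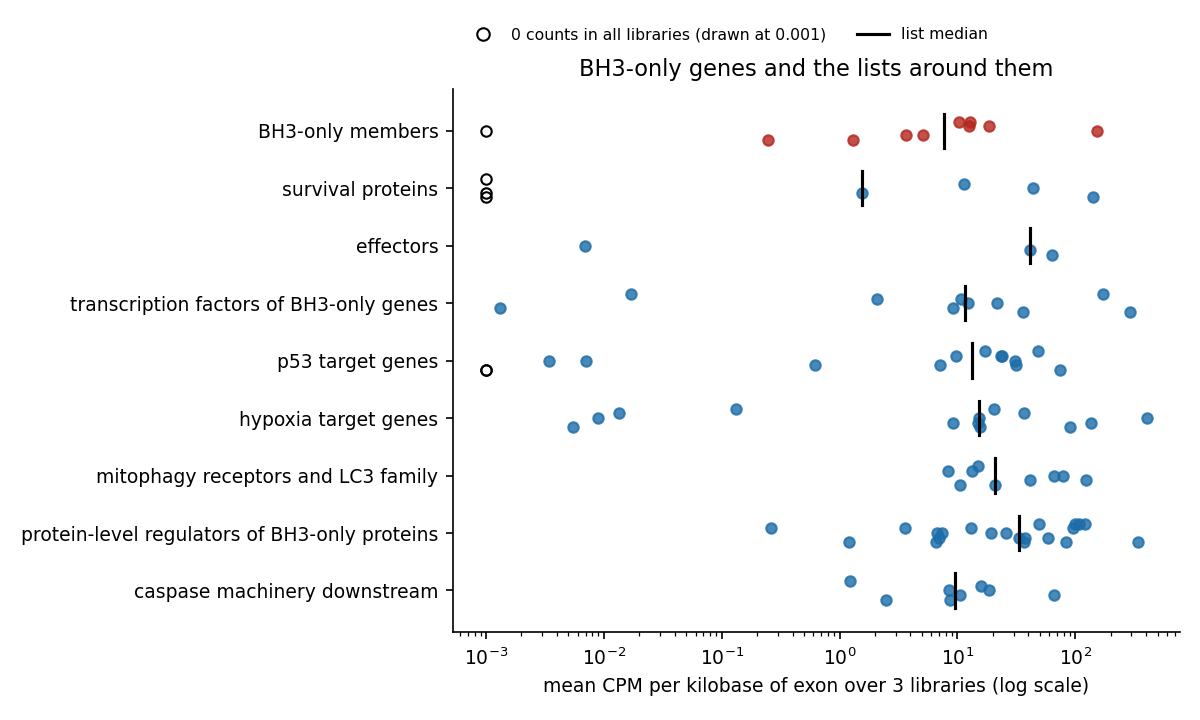
Mean CPM per kilobase over the 3 libraries for every gene of 9 lists on a log axis; each point is a gene, vertical bars are list medians and open circles are genes with 0 counts. Among the BH3-only members Pmaip1 stands alone near 153 CPM per kilobase and Hrk is at 0.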

How the data were processed

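The authors deposited 1 table of raw counts per gene symbol for each of 3 samples. The tools named are bcl2fastq, cutadapt 4.2 and STAR, and the build is mm10, per the submitters' processing notes. How reads were assigned to genes, on which annotation and whether by strand, is, like the STAR version, not given in the sources used here. CPM was computed from library totals. Lengths came from GENCODE M21, matched for 98.76% of symbols (475 by an older symbol). The test between libraries used edgeR 4.0.16 in R 4.3.3 (TMM, filterByExpr, dispersion 0, Benjamini-Hochberg at 0.05). On simulated independent counts of 11337 genes with 1 library changed 1.1-, 1.25-, 1.5- or 2-fold, it recovered 64, 64, 96 and 90% of 50 genes each and called 12 unchanged genes. Ratios used an exact sign-flip permutation test (Python 3.11.15, SciPy 1.17.1). With 1 group, no groups were compared.

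The members, lists and tests were chosen with earlier results of these data known. Named are all members, genes of the ratios, the regulators, the 3 highest genes per kilobase and up to 2 at 0 of each list, and the 3 genes nearest to Pmaip1; some genes that this rule names are left out. Bcl2l13, Gpr137 and Gm45507 were named for their overlap, and a few genes near 0 after their values were seen. Lists were BH3-only, survival and effector genes, transcription factors, p53 and hypoxia targets, mitophagy, protein-level regulators, caspase machinery and markers of plasma, B, T and NK, myeloid, erythroid, and stromal and endothelial cells. Alternatives were TMM or RLE scaling, other limits, lengths, filters and dispersion, and leaving out each library.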

Additional observations from a re-analysis of the deposited data

How the results depend on the processing

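No paired analysis was possible because there is 1 group. The count of 8 members at 1 CPM or more was the same at limits of 0.5 and 5 CPM, under TMM and RLE scaling and without any 1 replicate. The edgeR count of 4 members varying between libraries was 4 under RLE scaling and with library totals (62.9 and 62.2% of all genes called), 3 with no filter on low counts (43.3%) and 0 with a dispersion of 0.0025 (1 at an unadjusted p under 0.05, and 15.6% of all genes called). Leaving out 1 replicate gave 0 to 4 (8.57 to 61.9% of all genes). The log2 ratio of Pmaip1 to Mcl1 was -0.22 without lengths, that of Bcl2l11 to Bcl2 0.054 with the longest transcript, and that of Bnip3 to Bnip3l 0.089 with the longest transcript and -0.10 to 0.00462 with 1 replicate left out. Of neighbours in the order, Bnip3l to Bnip3 was -0.089 with the longest transcript and -0.00462 to 0.10 with 1 replicate left out, Bnip3 to Bad -0.087 with the longest transcript, and Bbc3 to Bmf -0.84 without lengths. These reversals follow from the lengths taken, apart from the one without replicate 1. The other ratios kept their sign. TMM scaling moved the replicate 3 difference of Pmaip1 from -0.06 to -0.02. The members above the median of genes of like length in replicate 3 numbered 3, and 2 with the 200 nearest genes or without replicate 1. Pmaip1, Bad and Bnip3l were outside the middle 50% of such genes in each setting tried, except Bad without replicate 2. Depth limits Bik, with 67 counts in all, and Hrk.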
